A study of Mus musculus with 15 samples.

Results

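The 10 genes described here encode the machinery that cuts cytosolic proteins into peptides and shows those peptides on the cell surface: the immunoproteasome subunits Psmb8, Psmb9 and Psmb10, the proteasome activator subunits Psme1 and Psme2, the peptide transport and loading genes Tap1, Tap2 and Tapbp, and the class I molecule genes B2m and H2-K1. They were taken by symbol from the 38924 genes in the files, and each symbol matched 1 gene. All 10 passed the filter on low counts (at least 1 cpm, a count scaled by library size, in at least 2 libraries), as did 14967 genes in all. RNA came from CD11b+CD45hi and CD11b+CD45lo cells sorted by FACS from brains of wild type C57BL/6J male mice killed at 12 months of age, kept on a chow diet (CD) or fed a western diet (WD) from 2 months. There were 15 libraries: 4 of CD45hi and 4 of CD45lo cells from CD-fed mice, and 3 of CD45hi and 4 of CD45lo cells from WD-fed mice. CD11b is a myeloid integrin and CD45 a leukocyte surface protein. The CD45lo gate is taken to hold mainly resident microglia and the CD45hi gate to be enriched for infiltrating myeloid cells, so each library is a mixture defined by its gate. The comparisons ask how CD45hi cells differ from CD45lo cells on each diet, and how WD differs from CD within each gate.

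Class I presentation starts with the proteasome. Interferon signalling makes cells exchange the constitutive catalytic subunits Psmb5, Psmb6 and Psmb7 for Psmb8, Psmb9 and Psmb10, respectively, which changes where proteins are cut, and raises the PA28 activator that Psme1 and Psme2 form. Tap1 and Tap2 pair to carry peptides into the endoplasmic reticulum, tapasin (Tapbp) bridges this transporter to an empty class I molecule, and the peptide is then held by a heavy chain such as H2-K1 joined to beta-2 microglobulin (B2m). In the brain, microglia and other myeloid cells are among the cells that use this pathway to present antigen to CD8 T cells.

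Libraries held 11951412 to 17912272 expected counts. At this depth 3 counts, the limit that a count of 0 allows, are worth 0.156 to 0.282 cpm (counting error only). Members ranged from 30 to 175 counts per library for Tap2 up to 34359 to 71322 for B2m, and Tap2 is therefore the least precise of them. The study describes its deposited counts as given per animal. The labels name no mouse, so which CD45hi and CD45lo libraries came from the same mouse is not known here. In a principal component analysis of the 14967 genes, CD CD45hi replicate 4 (-91.2) and WD CD45hi replicate 1 (134.5) stood apart on the second component from the other 13 libraries (-21.4 to 4.6). Summed over 8 listed genes such as P2ry12 and Tmem119, microglial markers were at 7053 to 8557 cpm in CD45hi and 14543 to 18471 cpm in CD45lo libraries. Markers of microglia were thus present on both sides of the gate.

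Of the members, 6 lie on chromosome 17 within the mouse major histocompatibility complex. In mm10, with gene spans from GENCODE M21, Psmb9 (minus strand, 34181987 to 34187764), Tap1 (plus, 34187553 to 34197225), Psmb8 (plus, 34197721 to 34201454) and Tap2 (plus, 34203527 to 34216321) occupy 34335 bases. H2-K1 (minus, 33996017 to 34000347) and Tapbp (plus, 33915899 to 33929292) lie on the same chromosome. Psme1 (plus, 55578123 to 55581529) and Psme2 (minus, 55587441 to 55591113) are neighbours on chromosome 14, B2m (plus, 122147686 to 122153083) is on chromosome 2, and Psmb10 (minus, 105935735 to 105938444) is on chromosome 8.

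Psmb9 and Tap1 are transcribed away from each other. Their RefSeq start sites are separated by 225 bases and their annotated spans overlap by 212 bases, and the stretch between the starts is shown because these neighbours had different values in the comparisons below. It is written on the Tap1 strand (GRCm38.p6, chr17:34187331-34187555), and the capitals mark CCGCCC, which on the Psmb9 strand reads GGGCGG, the core of a GC box.

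Psmb9-Tap1: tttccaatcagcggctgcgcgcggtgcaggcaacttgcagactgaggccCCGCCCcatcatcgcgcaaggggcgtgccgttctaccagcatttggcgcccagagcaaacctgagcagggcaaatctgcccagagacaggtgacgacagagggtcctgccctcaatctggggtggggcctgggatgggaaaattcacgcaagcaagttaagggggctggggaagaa

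A stretch of 150 bases before a RefSeq start site is also shown for 3 members. These are H2-K1, which rose in CD45hi cells on both diets, B2m, its partner chain, and Psmb8, the neighbour of Tap1. The Psmb8 stretch lies within the GENCODE span given above. For H2-K1 the start at 34000333 was used, and another is listed at 34000347. Capitals mark a form of the NF-kappa-B site in H2-K1 (minus strand, chr17:34000334-34000483), a pair of GAAA separated by 2 bases in B2m (plus strand, chr2:122147537-122147686) and a match to TTCNNNGAA in Psmb8 (plus strand, chr17:34198045-34198194).

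H2-K1: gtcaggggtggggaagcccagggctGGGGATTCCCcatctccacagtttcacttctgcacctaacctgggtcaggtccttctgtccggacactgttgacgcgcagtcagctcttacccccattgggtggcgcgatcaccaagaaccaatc

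B2m: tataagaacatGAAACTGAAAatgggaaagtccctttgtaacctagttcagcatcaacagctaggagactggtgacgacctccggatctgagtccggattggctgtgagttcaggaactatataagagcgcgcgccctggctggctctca

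Psmb8: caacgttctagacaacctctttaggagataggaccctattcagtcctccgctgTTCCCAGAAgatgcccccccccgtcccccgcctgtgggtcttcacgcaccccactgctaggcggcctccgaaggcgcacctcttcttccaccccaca

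These sequences come from RefSeq windows of 250 bases before to 50 after a start, searched on both strands. Windows were found for 9 of the 10 members, all but Tap2. GGGCGG stood in the windows of 5 members (Psmb9, Psme1, Psme2, Tap1 and Tapbp) and in 35.7% of all 32851 windows. A pair of GAAA separated by any 2 bases, the core spacing of an interferon-stimulated response element, stood in those of B2m and Psme1 and in 3.44% of all windows. TTCNNNGAA, the form of a gamma-activated site, stood in that of Psmb8 and in 8.30% of all, and the letters in capitals in H2-K1 stood in that of H2-K1 and in 0.107% of all. TATAAA stood in the windows of B2m, H2-K1 and Psmb8 and in 13.6% of all. The GAAA pair of Psme1 lay 9 to 18 bases past its start. A match describes these letters only and is no evidence of binding. Only these exact forms were searched, so a window without a match may still hold such an element in another form.

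Compared per length, in TPM (transcripts scaled to a common library sum) as deposited, the order of levels was led in every group by B2m, H2-K1, Psme1, Psmb9 and Psme2, and Tap2 was last. B2m ranged from 5766 to 8750 TPM over the 15 libraries, above every H2-K1 level (479 to 1538 TPM). In WD CD45hi cells each of the first 5 genes was clear of the next, with H2-K1 at 1053 to 1538, Psme1 at 568 to 1035, Psmb9 at 354 to 411, Psme2 at 140 to 219 and Psmb8 at 70.6 to 94.1 TPM. In CD CD45hi cells the neighbours from Psmb9 (89.5 to 191 TPM) down to Psmb10 (11.7 to 28 TPM) each overlapped with the next. H2-K1 and Psme1 overlapped in 3 groups, all but WD CD45hi. Tap2 was at 1.36 to 5.09 TPM in CD CD45hi, 1.73 to 1.98 in WD CD45hi, 4.48 to 6.35 in CD CD45lo and 5.69 to 10.8 in WD CD45lo cells, below every other member in each group.

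Between CD45hi and CD45lo cells the estimate was above 0 for 9 of 10 members on the WD and 7 of 10 on the CD. Fewer passed a test. The class I molecule genes were higher in CD45hi cells on both diets, and Psmb9 was higher on the WD. Of the 3 transport and loading genes Tap1 alone passed a test, that for any change. Differences between members were not tested. With glmTreat, which asks for a change beyond 1.5-fold, 2 of 10 members rose in CD45hi cells of WD-fed mice (H2-K1 and Psmb9), where 5.18% of all genes tested were called and 4.01% were called as higher. In CD-fed mice 1 of 10 rose (H2-K1), where 3.98% of all genes were called and 3.39% as higher. The median log2 fold change of the members was 0.88 on the WD and 0.57 on the CD, and that of all genes was 0.00 and 0.04. When the same fit was asked for any change (glmQLFTest), 5 members were called on the WD (Tap1, B2m, H2-K1, Psme2 and Psmb9), beside 9.12% of all genes (6.22% higher and 2.90% lower). On the CD 3 were called (Tap1, B2m and H2-K1), beside 8.03% (5.95% higher and 2.08% lower). All of these were higher in CD45hi cells, and no member was called lower.

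The ranges of the libraries were compared as well, in normalized cpm. On the WD, every CD45hi library lay above every CD45lo library for 6 members (Psmb8, Psmb9, Psme2, Tap1, B2m and H2-K1) and below for 1 (Tap2). Among all genes tested 23.4% lay apart in this way, 1501 of them higher and 2001 lower. On the CD, 3 members lay apart (Tap1, B2m and H2-K1, all higher), beside 16.5% of all genes, 1236 of them higher and 1231 lower. These results depend on the scale. In deposited TPM the gates overlapped for Tap1 and B2m on both diets and for Psmb8 on the WD. Tapbp on the CD lay apart in TPM, lower in CD45hi cells. The size and sign of gate differences also depended on the scale. The H2-K1 gap was smaller in mean TPM, at 1095 in CD45hi against 647 in CD45lo cells on the CD and 1318 against 666 on the WD. Mean TPM of Psmb9 on the CD was lower in CD45hi cells (135 against 185). On the WD so was that of Tapbp (74.4 against 87.0) and of Psmb10 (27.9 against 29.6). The fitted estimates for these genes were above 0. In bulk RNA of this kind, fewer cells of a type and less RNA per cell cannot be told apart.

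**Figure D1:**
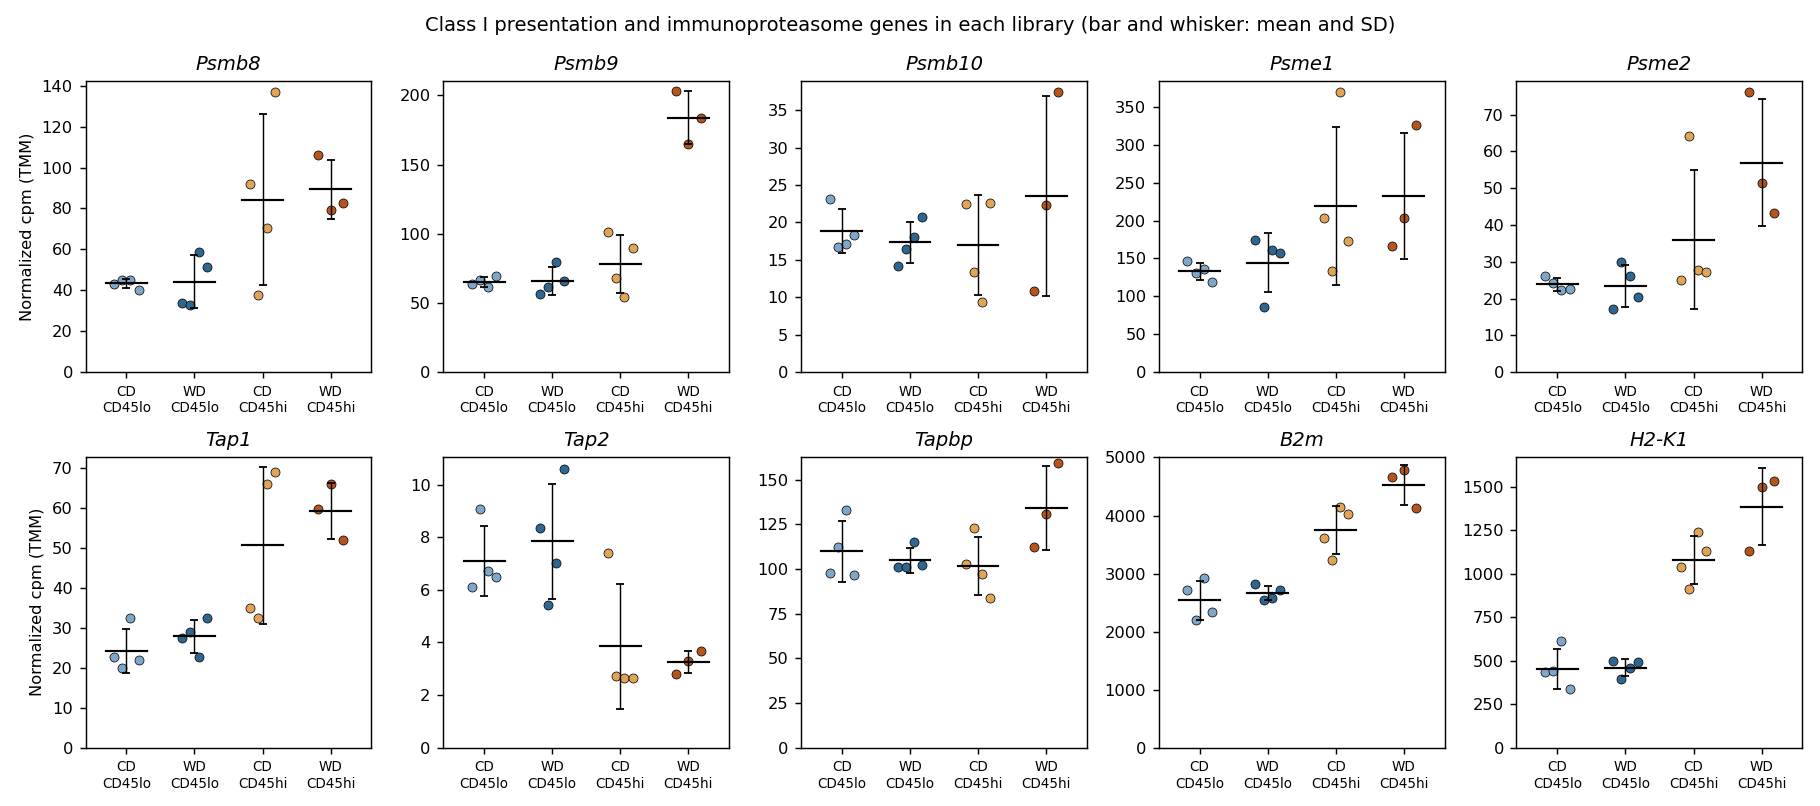
Normalized cpm (vertical axis, counts scaled by TMM library size) of the 10 genes in each of the 15 libraries, by diet and CD45 level, with points for libraries and bar and whisker for mean and SD of 3 or 4 libraries. The 3 WD CD45hi libraries of Psmb9 lie at 165 to 203 cpm and all other libraries at 54.0 to 101 cpm, while H2-K1 and B2m are higher in CD45hi libraries of both diets.

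H2-K1 encodes the heavy chain that holds the peptide. Its levels were 1038, 912, 1239 and 1130 cpm in CD CD45hi libraries and 435, 440, 612 and 335 cpm in CD CD45lo libraries. On the WD they were 1130, 1499 and 1532 cpm in CD45hi and 497, 396, 460 and 493 cpm in CD45lo libraries. No CD45hi library came down to a CD45lo library on either diet. H2-K1 was 2.37-fold higher in CD45hi cells on the CD (log2 fold change 1.25, SE 0.168, edgeR glmTreat FDR = 0.00499) and 3.00-fold higher on the WD (1.59, SE 0.179, FDR = 0.000308).

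Class I heavy chains resemble each other, and RSEM divided reads among them: the H2-K1 count was fractional in all 15 libraries. H2-K1 made up 38.6% to 45.6% of the sum over 10 listed heavy chain genes (H2-K1, H2-D1 and the H2-Q and H2-T genes). That sum does not depend on how RSEM divided reads among those 10 genes. It was 2299 to 2996 cpm in CD CD45hi, 867.9 to 1343 in CD CD45lo, 2879 to 3596 in WD CD45hi and 956 to 1123 in WD CD45lo libraries, with log2 fold changes of 1.34 (SE 0.136, edgeR FDR = 0.000301) on the CD and 1.62 (SE 0.144, FDR = 2.81e-05) on the WD.

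B2m, the light chain that every classical class I molecule needs, had 3605, 3237, 4141 and 4032 cpm in CD CD45hi libraries and 2713, 2195, 2920 and 2333 cpm in CD CD45lo libraries. In WD-fed mice it had 4672, 4785 and 4132 cpm in CD45hi and 2815, 2550, 2585 and 2719 cpm in CD45lo libraries. In cpm the gates did not overlap on either diet, but the difference was small. It was 1.48-fold on the CD (log2 0.56, SE 0.105) and 1.70-fold on the WD (log2 0.76, SE 0.112). These changes passed edgeR's test for any change (FDR = 0.00193 and 0.000233) and not the test beyond 1.5-fold (FDR = 0.841 and 0.172). In deposited TPM the gates overlapped, at 6866 to 8252 against 5766 to 7988 on the CD and 7957 to 8750 against 6959 to 8015 on the WD.

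Psmb9 was the member that differed most between diets. This subunit takes the place of Psmb6 in the immunoproteasome. Its levels were 203, 165 and 184 cpm in WD CD45hi libraries and 101, 68.1, 54.0 and 89.6 cpm in CD CD45hi libraries. In CD45lo cells they were 63.7, 66.6, 61.5 and 69.5 cpm on the CD and 56.2, 61.2, 79.6 and 65.5 cpm on the WD. The 3 WD CD45hi libraries were higher than all of the other 12, and the other 3 groups overlapped.

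Psmb9 was 2.81-fold higher in CD45hi than in CD45lo cells of WD-fed mice (log2 1.49, SE 0.222, glmTreat FDR = 0.00392). In CD-fed mice the difference was 0.26 (SE 0.206, FDR = 1.00), with a 95% interval of -0.17 to 0.70. Within CD45hi cells Psmb9 was 2.35-fold higher on the WD (log2 1.23, SE 0.221, 95% interval 0.77 to 1.70, edgeR glmQLFTest FDR = 0.0321). Within CD45lo cells the log2 difference was 0.01 (SE 0.206, 95% interval -0.43 to 0.44, FDR = 1.00). The test of whether the diet difference itself differed between the gates gave 1.23 (SE 0.302, 95% interval 0.59 to 1.87), which did not pass over all genes (edgeR FDR = 0.281) but did in DESeq2 (1.25, adjusted p = 0.00832).

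The diet call for Psmb9 in CD45hi cells stood close to the threshold. Leaving out any 1 of the 8 CD45lo libraries ended it (edgeR FDR = 0.0504 to 0.0637), with the log2 difference at 1.23 to 1.25. These libraries are not in the comparison, but the joint fit shares an estimate of spread over all groups. The call thus depended on libraries outside the comparison. Leaving out any 1 of the 7 CD45hi libraries kept the call (log2 1.09 to 1.38, FDR = 0.0195 to 0.0458). A fit of the 2 CD45hi groups alone gave 1.23 (SE 0.296, against 0.221 in the joint fit) and FDR = 0.785. In that fit 0 genes were called and 843 had an unadjusted p under 0.05. Without both CD45hi libraries that stood apart in the principal component analysis, Psmb9 was at 1.23 between diets (FDR = 0.0306) and 1.41 between the gates on the WD (FDR = 0.0106).

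Psmb8, which replaces Psmb5, had 106, 79.2 and 82.7 cpm in WD CD45hi and 33.8, 32.9, 58.5 and 51.5 cpm in WD CD45lo libraries. In CD-fed mice it had 91.9, 37.5, 70.5 and 137 cpm in CD45hi and 43.0, 45.2, 45.1 and 40.2 cpm in CD45lo libraries. The 4 CD CD45hi libraries were spread widely and 1 of them lay below the CD45lo range. Fold changes were near 2-fold on both diets (log2 0.96, SE 0.320 on the CD and 1.01, SE 0.340 on the WD), and neither passed a test in edgeR (glmTreat FDR = 0.338 and 0.249, any change FDR = 0.0806 and 0.0737).

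Psmb10, which replaces Psmb7, was the lowest of the catalytic subunits. It had 22.5, 13.4, 9.33 and 22.6 cpm in CD CD45hi, 23.1, 16.7, 17.1 and 18.3 in CD CD45lo, 10.8, 22.4 and 37.5 in WD CD45hi and 14.2, 16.4, 18 and 20.7 cpm in WD CD45lo libraries. All groups overlapped. The log2 differences between the gates were -0.15 (SE 0.419) on the CD and 0.45 (SE 0.450) on the WD, and neither passed (edgeR glmTreat FDR = 1.00 and 0.825).

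The balance between inducible and constitutive subunits was taken as a ratio of TPM within each library, which needs no scaling between libraries. Psmb9 over Psmb6 was 5.90, 17.1 and 5.67 in WD CD45hi libraries and 3.30, 2.84, 0.957 and 1.91 in CD CD45hi libraries. It was 2.03, 1.84, 2.17 and 2.68 in CD CD45lo and 2.19, 2.35, 2.86 and 1.59 in WD CD45lo libraries. The WD CD45hi libraries were above all others. On the log2 scale the mean was 2.03 higher in WD than in CD CD45hi cells and 1.92 higher than in WD CD45lo cells. Each comparison gave p = 0.0571 in a two-sided exact permutation test, the smallest that 3 against 4 libraries allow, and 0.229 after Benjamini-Hochberg adjustment over 12 ratio tests.

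The other ratios were less clearly set apart. Psmb8 over Psmb5 was 1.52 to 2.23 in WD CD45hi and 0.986 to 1.49 in WD CD45lo libraries (log2 difference 0.73, exact permutation p = 0.0571, adjusted 0.229), and 0.907 to 5.16 in CD CD45hi against 0.758 to 1.16 in CD CD45lo libraries (1.43, exact permutation p = 0.0857, adjusted 0.257). Psmb10 over Psmb7 overlapped between all groups, with ranges of 0.150 to 0.623 in CD CD45hi and 0.276 to 1.52 in WD CD45hi libraries. None of the 12 ratio tests passed after adjustment, and with these library numbers none could have passed. The smallest p that the exact permutation test allows is 0.0571 for 3 against 4 libraries and 0.0286 for 4 against 4. Both are too large once adjusted over 12 tests. The adjusted values therefore cannot decide whether any ratio differed between groups. The constitutive subunits themselves were not called in any comparison. In CD45hi cells, Psmb6 differed between diets by -0.32 (SE 0.403), Psmb5 by 0.49 (SE 0.393) and Psmb7 by -0.75 (SE 0.370) on the log2 scale.

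**Figure D2:**
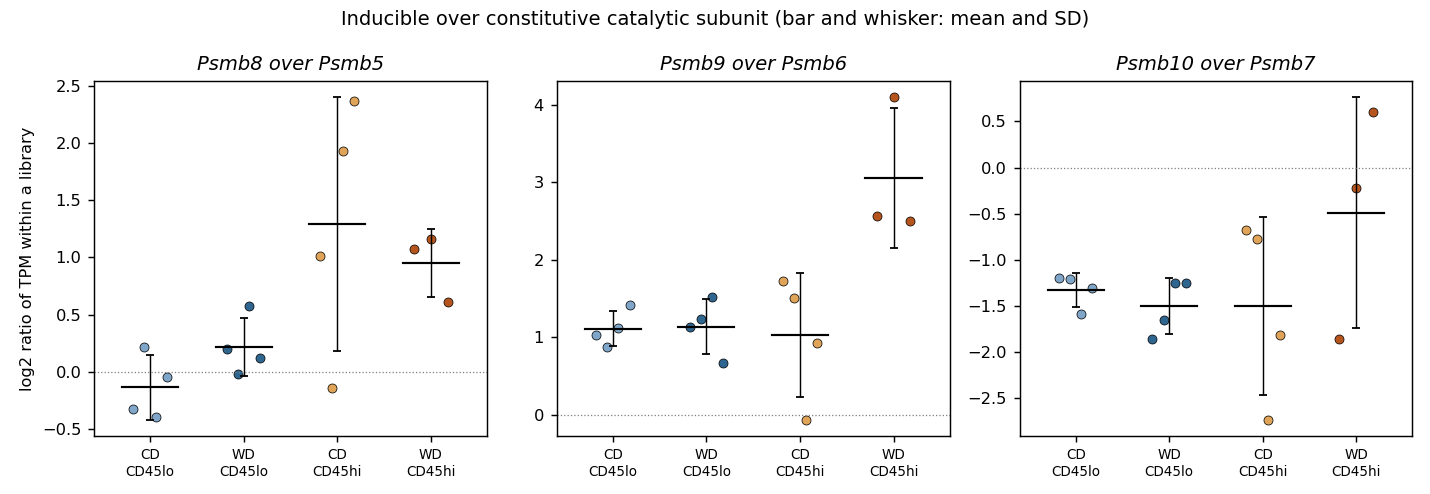
Log2 ratio of TPM (vertical axis) of each inducible catalytic subunit to the constitutive subunit it replaces, in each library by diet and CD45 level, with bar and whisker for mean and SD. For Psmb9 over Psmb6 the 3 WD CD45hi libraries lie above all others, and for Psmb10 over Psmb7 all groups overlap.

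Psme1 and Psme2 form the PA28 ring that opens the proteasome and speeds the release of peptides. Psme2 had 76.2, 51.5 and 43.2 cpm in WD CD45hi and 17.2, 30, 26.1 and 20.3 cpm in WD CD45lo libraries, which did not overlap. In CD-fed mice it had 25, 64.2, 27.7 and 27.1 cpm in CD45hi and 26.1, 24.3, 22.3 and 22.7 cpm in CD45lo libraries. On the CD, replicate 2 of the CD45hi cells stood far above the other 3. The WD difference of 1.28 (SE 0.369) passed edgeR's test for any change (FDR = 0.0365) and not glmTreat (FDR = 0.131), and the CD difference was 0.59 (SE 0.345, glmTreat FDR = 0.793).

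Psme2 has a near-identical copy, Psme2b, and its count was fractional in all 15 libraries. The copy itself was given 35.8 to 83.7 cpm in WD CD45hi, 24 to 39.7 in WD CD45lo, 15.5 to 43.5 in CD CD45hi and 28.6 to 43.9 in CD CD45lo libraries. How the reads were divided between the copies is therefore part of the Psme2 value. Psme1 had 167, 204 and 326 cpm in WD CD45hi and 174, 86.4, 161 and 157 in WD CD45lo libraries, and 203, 133, 370 and 173 against 146, 131, 136 and 119 cpm on the CD. The gates overlapped on both diets (log2 0.68, SE 0.313 on the WD and 0.72, SE 0.293 on the CD, edgeR glmTreat FDR = 0.543 and 0.608).

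Tap1 and Tap2, the chains of the peptide transporter, had estimates of opposite sign, although Tap2 passed no test. Tap1 had 35.1, 32.5, 66.2 and 69.1 cpm in CD CD45hi and 22.8, 19.9, 32.4 and 21.9 cpm in CD CD45lo libraries, and 59.8, 66.0 and 52.1 against 27.5, 28.9, 22.7 and 32.5 cpm on the WD. The ranges touched on the CD, where the lowest CD45hi library was 32.5 and the highest CD45lo library 32.4 cpm. Tap1 was 1.06 (SE 0.305) and 1.09 (SE 0.324) higher on the log2 scale in CD45hi cells of CD-fed and WD-fed mice, past edgeR's test for any change (FDR = 0.0397 and 0.0435) and not past glmTreat (FDR = 0.214 and 0.185).

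Tap2 had 2.82, 3.29 and 3.68 cpm in WD CD45hi and 8.33, 5.42, 7.03 and 10.6 cpm in WD CD45lo libraries. On the CD it had 7.40, 2.73, 2.64 and 2.64 cpm in CD45hi and 6.12, 9.08, 6.70 and 6.47 cpm in CD45lo libraries. The gates were apart on the WD, and on the CD 3 of 4 CD45hi libraries were below every CD45lo library. The log2 differences of -1.26 (SE 0.626) on the WD and -0.88 (SE 0.564) on the CD did not pass (edgeR glmTreat FDR = 0.395 and 0.712, any change FDR = 0.226 and 0.440).

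Tapbp, which holds the empty heavy chain at the transporter, had 112, 131 and 159 cpm in WD CD45hi and 101, 101, 115 and 102 cpm in WD CD45lo libraries. On the CD it had 103, 123, 97.3 and 83.9 cpm in CD45hi and 97.9, 112, 133 and 96.4 cpm in CD45lo libraries. All groups overlapped in cpm, and the log2 differences of 0.36 (SE 0.194) on the WD and -0.11 (SE 0.180) on the CD did not pass (edgeR glmTreat FDR = 0.931 and 1.00).

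Neighbours on chromosome 17 had estimates of different sign. Within 34335 bases, Psmb9, Tap1 and Psmb8 had positive estimates between the gates on both diets and Tap2 had negative ones. The 2 genes of the divergent start region had unlike diet values, Psmb9 at 1.23 (SE 0.221) and Tap1 at 0.23 (SE 0.325) in CD45hi cells. The difference between these 2 genes was not tested. The library kit does not mark strand, so reads in overlaps cannot be assigned by strand. Such overlaps exist between Psmb9 and Tap1, between Psmb8 and Tap2 and the antisense gene Gm20496, between Tap2 and Gm15821, and at Psme1 (Emc9), B2m (Patl2), Psmb10 (Gm16156) and Tapbp (Gm19412, and Zbtb22 on the same strand).

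**Figure D3:**
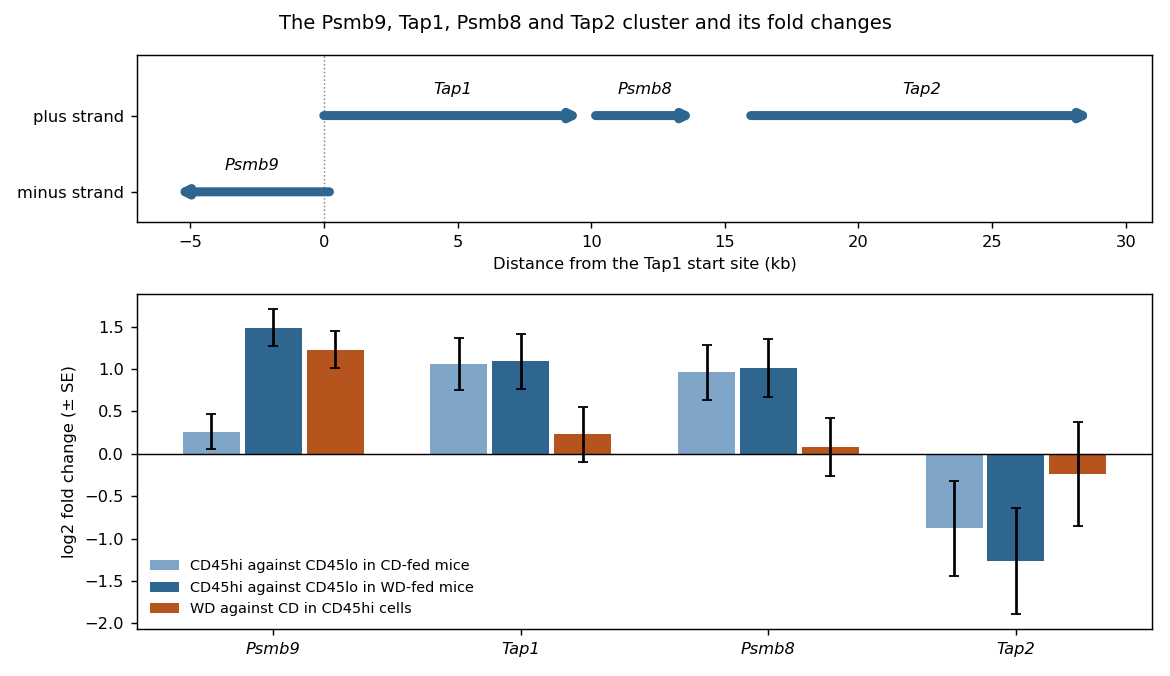
Top, the Psmb9, Tap1, Psmb8 and Tap2 genes by distance from the Tap1 start site (horizontal axis, kb), with arrows in the direction of transcription. Bottom, their log2 fold changes (vertical axis, bars with SE) between the gates on each diet and between diets in CD45hi cells, where Psmb9 reaches 1.49 and 1.23 and Tap2 is negative in all 3 comparisons.

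Between diets, Psmb9 was the one member called. In CD45hi cells 1 of 10 members rose on the WD (Psmb9), where 0.254% of all genes were called and 0.0601% as higher and 0.194% as lower. The libraries of the diets lay apart for 1 of 10 (Psmb9, higher), beside 5.77% of all genes, 386 of them higher. The estimate was above 0 for 9 of 10 members, with a median of 0.32 against -0.02 for all genes. After Psmb9 came Psme2 (0.66, SE 0.368), Psmb10 (0.48, SE 0.450), Tapbp (0.40, SE 0.194) and H2-K1 (0.36, SE 0.178), and the 95% intervals of these 4 ran from below 0 to between 0.74 and 1.44. B2m was 1.21-fold higher (log2 0.27, SE 0.113, edgeR FDR = 0.226). Psmb8 and Psme1 were both at 0.08, with intervals of -0.64 to 0.80 and -0.58 to 0.74.

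In CD45lo cells 0 of 10 members were called, as were 0% of all genes, with edgeR. At an unadjusted p under 0.05 there were 123 genes, and DESeq2 called 4 genes, none of them a member. No member's libraries lay apart between diets (beside 2.42% of all genes), and the median difference was 0.02 against 0.00 for all genes. The narrowest limits were those of B2m (0.07, 95% interval -0.15 to 0.29) and H2-K1 (0.02, -0.33 to 0.37), and the widest those of Tap2 (0.15, -1.03 to 1.32). The joint fit shares its estimate of spread with the CD45hi libraries, which varied more for most genes. These limits thus do not measure the spread within CD45lo cells alone. An edgeR fit of the CD45lo groups alone had 556 of 13911 genes at an unadjusted p under 0.05 and called 0. For the interaction of diet and gate 0 of 10 members were called, beside 0.00668% of all genes (1 gene), with 1515 genes at an unadjusted p under 0.05. The comparisons share libraries, and so they are not independent of each other.

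**Figure D4:**
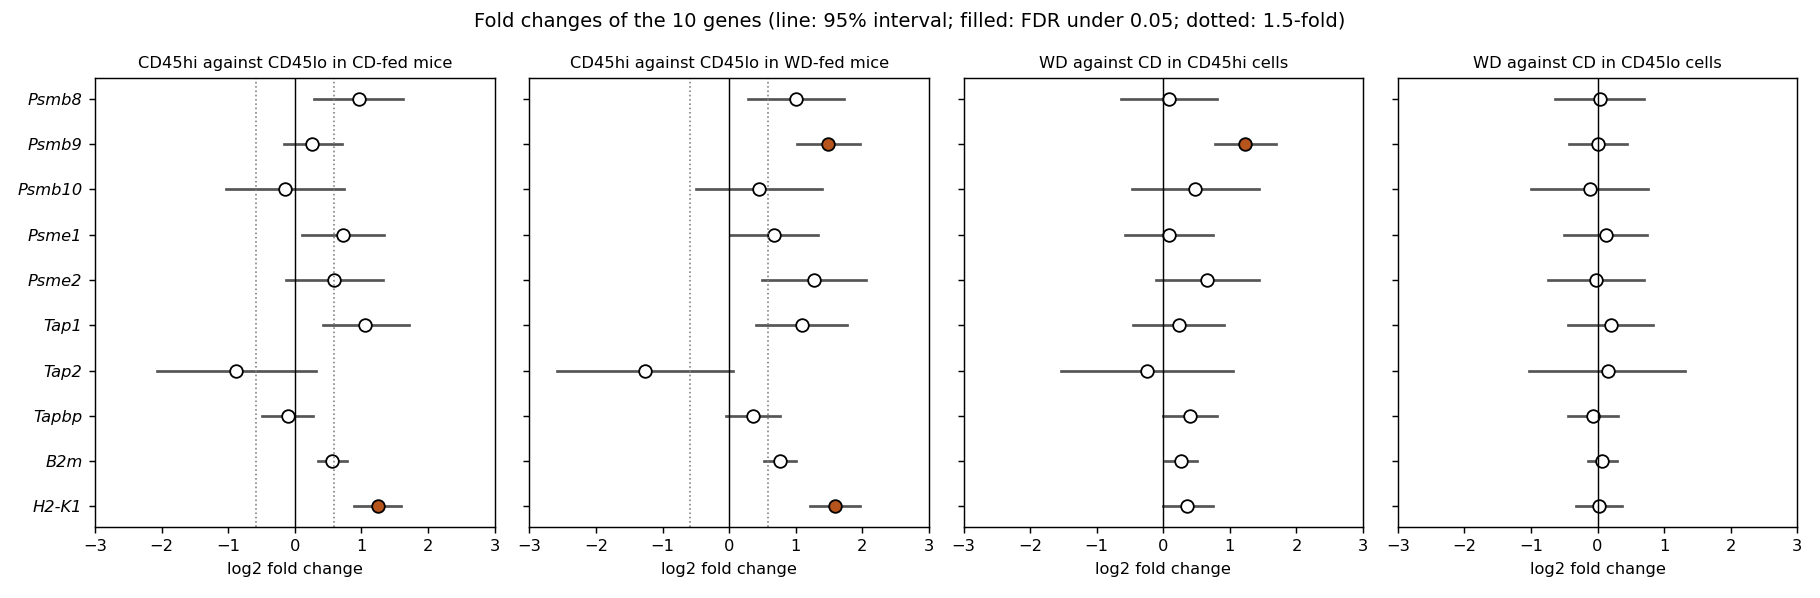
Log2 fold change (horizontal axis) of the 10 genes in each of 4 comparisons, with lines for the 95% interval and filled points for an FDR under 0.05 (glmTreat at the dotted 1.5-fold limits for the 2 left panels, glmQLFTest for the others). H2-K1 is filled on both diets, Psmb9 on the WD and between diets in CD45hi cells, and no point is filled in CD45lo cells.

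The rest of the pathway was followed in 37 listed genes, all of which were tested. With glmTreat, 3 rose in CD45hi cells on the WD (H2-D1, H2-Q6 and H2-Q7) and 4 on the CD (these and H2-Q10), and 0 fell on either diet, beside 4.01% of all genes called higher and 1.17% lower on the WD and 3.39% and 0.588% on the CD. All are class I heavy chains. H2-D1, the other classical heavy chain of this strain, had 862, 727, 955 and 1091 cpm in CD CD45hi and 330, 282, 431 and 326 in CD CD45lo libraries, and 1127, 1143 and 1084 against 325, 334, 353 and 311 cpm on the WD. It was 2.66-fold (log2 1.41, SE 0.144, edgeR glmTreat FDR = 0.000234) and 3.38-fold higher (1.76, SE 0.153, FDR = 1.81e-05). H2-Q6 rose by 1.89 (SE 0.363) and 2.55 (SE 0.386) and H2-Q7 by 2.53 (SE 0.366) and 2.24 (SE 0.377) on the CD and the WD. Reads can be shared between these H2-Q genes. H2-Q10 rose by 1.73 (SE 0.406) on the CD and was at 1.29 (SE 0.425) on the WD.

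Asked for any change, 7 of the 37 were called higher on the WD, H2-M3 (1.45, SE 0.350), H2-Q4 (1.12, SE 0.314) and Jak2 (0.76, SE 0.234) among them, and 0 lower, beside 6.22% and 2.90% of all genes. On the CD 8 were called higher, adding H2-T24 (1.17, SE 0.349), Irf1 (1.56, SE 0.445), Stat2 (0.97, SE 0.250) and Nlrc5 (2.19, SE 0.616) to the 4 heavy chains, and 1 lower, the interferon gamma receptor chain Ifngr1 (-0.82, SE 0.141), beside 5.95% and 2.08% of all genes. Jak2 relays the interferon gamma signal, Stat2 the type I interferon signal, Irf1 is a transcription factor that interferon induces, and Nlrc5 is the coactivator of class I genes. The edgeR FDRs of these regulators lay between 0.000996 and 0.0497. The median of the 37 was 0.36 on the WD and 0.23 on the CD, and that of all genes 0.00 and 0.04.

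Between diets 0 of the 37 genes were called in either gate, beside 0.254% of all genes in CD45hi and 0% in CD45lo cells, so that the count sets these genes apart from no others. In CD45hi cells, where Psmb9 was higher on the WD, Irf1 had 18.9, 11.1 and 46.6 cpm on the WD and 85.2, 33.5, 57.1 and 140 cpm on the CD (log2 -1.63, SE 0.494, edgeR FDR = 0.124). Jak2 had 143, 90.2 and 124 cpm against 73.9, 75.9, 44.2 and 76.4 cpm, with no overlap (0.82, SE 0.234, FDR = 0.114). The 3 WD libraries of Jak2 were thus above all CD libraries, while those of Irf1 overlapped with them. Over the 37 genes the diets lay apart in CD45hi cells for 2 as higher (Jak2 and H2-Q4) and for 2 as lower (Erap1 and Rfxap). Among all genes 5.77% lay apart. A link of Jak2 or Irf1 to Psmb9 was not tested.

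Markers of other cell types moved with the gate. With glmTreat, 8 of 8 microglial markers were lower in CD45hi cells on the CD and 6 of 8 on the WD. Higher in CD45hi cells on each diet were 5 of 6 monocyte markers, 4 of 7 neutrophil markers and 4 of 4 markers of border macrophages. Summed monocyte markers were at 391 to 803 cpm in CD45hi and 12.7 to 63.0 cpm in CD45lo libraries, and border macrophage markers at 513 to 2260 and 51.1 to 200 cpm. Neutrophil markers were at 673 to 2787 and 75.7 to 667 cpm on the CD and 456 to 1555 and 62.1 to 189 cpm on the WD. Dendritic cell markers were at 121 to 296 and 18.8 to 35.7 cpm, with 1 of 5 called on each diet. Of the markers tested, 2 of 4 for natural killer cells, 1 of 4 for B cells and 1 of 3 for oligodendrocytes were also higher on the WD. On the CD 1 of 4 for natural killer cells was higher and 1 of 3 for astrocytes lower. The 1 T cell marker tested was higher on each diet. The part of these cells in the rise of H2-K1, B2m, Tap1 and Psmb9 in CD45hi cells was not tested.

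No marker of any listed type was called between diets, though their sums varied within the CD45hi groups. Beside Psmb9 at 203, 165 and 184 cpm in WD CD45hi replicates 1, 2 and 3, neutrophil markers summed to 665, 456 and 1555 cpm, border macrophage markers to 513, 2260 and 1521 cpm and monocyte markers to 608, 790 and 446 cpm. In CD CD45hi libraries neutrophil markers summed to 673 to 2787 cpm, and border macrophage markers to 1605 to 1796 cpm. Natural killer cells can carry CD11b and lack CD3e, so that the gate (CD11b+CD3e-) need not remove them. Their markers summed to 0.708 to 47.3 cpm in CD and 18.4 to 125 cpm in WD CD45hi libraries. The T cell list summed to 11.1 to 83.6 and 0.470 to 45.7 cpm, nearly all of it Cd4 (10.9 to 79.4 and 0.470 to 45.1 cpm), which myeloid cells can also express. Cd3e was at 0 to 0.257 cpm in CD and 0 in all WD CD45hi libraries. The part of neutrophils, border macrophages, monocytes and natural killer cells in the diet difference of Psmb9 was not tested.

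Replicates varied more in the CD45hi than in the CD45lo groups for most genes, members included. In CD-fed mice the coefficient of variation was larger in CD45hi cells for 8 of 10 members, all but B2m and H2-K1, and for 88.0% of all genes. In WD-fed mice it was larger for 6 of 10 members and 82.8% of all genes. The widest spreads in CD CD45hi cells were those of Tap2 (61.4%), Psme2 (52.3%) and Psmb8 (49.6%), against 19.0%, 7.29% and 5.35% in CD CD45lo cells. Psmb9 varied by 27.2% and 10.3% in CD and WD CD45hi cells and by 5.32% and 15.3% in CD and WD CD45lo cells. B2m stayed between 4.59% and 13.2% in the 4 groups.

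Other genes with a like profile were sought by the root mean square (RMS) difference of centred log2 cpm over the 15 libraries, among 8253 genes. Closest to the mean profile of the members were Tnfrsf1b (0.167), a receptor for tumour necrosis factor, Pik3cd (0.170), a leukocyte phosphoinositide kinase subunit, Pbxip1 (0.172), Timm17b (0.177) and the adaptor Fyb (0.178), where the profile itself had an RMS of 0.314. Among the members, B2m (0.153) lay nearest to their mean and Tap2 (0.847) farthest. Closest to Psmb9, whose own RMS was 0.611, were Hint1 (0.291), Gpcpd1 (0.308), Gm13394 (0.315), Ero1l (0.315) and Jak2 (0.317).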

How the data were processed

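RNA-seq of 15 libraries of sorted brain myeloid cells was analysed. Per the study's methods and the submitters' processing notes, the authors made poly(A)-selected libraries with a kit that does not mark strand, sequenced 75 bp paired-end reads, trimmed bases under Phred 30, and quantified genes with RSEM 1.2.12 on mm10. The annotation release is not given in the sources used here. Each deposited file holds an expected count per gene, which is estimated and not normalized, and a TPM, which is scaled by effective length and library.

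Expected counts were rounded. The low-count filter asked for 1 cpm in 2 libraries or more and left 14967 of 38924 genes. TMM scaling and edgeR 4.0.16 (R 4.3.3), in its earlier quasi-likelihood form, were used, with all 15 libraries and 4 groups in 1 fit. The gates were compared with glmTreat at 1.5-fold, and diets and the interaction with glmQLFTest. P-values were adjusted over all genes (FDR under 0.05). The standard error is the log2 fold change divided by the square root of F. Subunit ratios used TPM with no pseudocount and two-sided exact permutation tests. The search for like profiles used log2(cpm + 0.5) of genes with a mean of at least 10 cpm. The script was tested on simulated data.

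Groups came from the sample titles. No replicates were identical (chi-square per degree of freedom 22.0 to 143 over 21 pairs), so all 15 were counted. The members, marker lists and other listed genes were chosen with earlier results of these data known. All members are named, other listed genes where they passed a test (1 is not reported here), with the constitutive subunits and H2-D1 in any case, and the 5 closest genes of each profile search. Values of Irf1 and Jak2 between diets, and of Psme2b, were chosen for printing after they were seen. Erap1 and Rfxap are named because their libraries lay apart between diets in CD45hi cells. The monocyte marker Chil3 was not found by symbol. Alternatives were DESeq2 1.42.0, limma-voom (limma 3.58.1), DESeq2 size factors, other filters, the edgeR 4 form, the compared groups alone, replicate blocks, summed heavy chains and leaving out each library. Leaving out both libraries apart in the principal component analysis was added after seeing the data.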

Additional observations from a re-analysis of the deposited data

Results flagged for a closer look

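Of the 39 groups of 4 libraries or library ratios searched, 3 held a library set apart from the rest of its group by a gap close to the whole range (chance gives about 1 in 20). Psme2 was at 64.2 cpm in CD CD45hi replicate 2, against 25 to 27.7 cpm in the other 3 libraries. Tap2 was at 7.40 cpm in CD CD45hi replicate 1, against 2.64 to 2.73 cpm, and without that library its log2 difference between the gates on the CD was -1.40, still not past the threshold. Tapbp was at 115 cpm in WD CD45lo replicate 3, against 101 to 102 cpm.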

How the results depend on the processing

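Over single genes, 699 results with one library left out and 471 under other settings kept their direction and side of the threshold, 43 and 5 changed sign, 8 and 3 lost the threshold and 6 under other settings gained it. The cause of these changes was not tested unless stated. Asked for any change, members called were 5 between the gates on the WD and 3 on the CD. DESeq2 called 1 member in the interaction (Psmb9). Members called between diets in CD45hi cells fell to 0 with the compared groups only (Psmb9 FDR = 0.785). Psmb9 there had adjusted p = 7.16e-06 in DESeq2, 0.0269 in limma-voom, 0.0297 with DESeq2 size factors, 0.0417 with no filter, 0.0328 with filterByExpr and 0.0161 in the edgeR 4 form.

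Same-numbered libraries of the gates did not deviate together (correlation -0.0217 to 0.0695 by sample title and -0.000466 to 0.0695 by file name, 7 pairs each), and the numberings pair different WD libraries, so the numbers were not taken as pairs. Whether libraries share a mouse is not settled by this. With a replicate block by sample title, 2 members were called between the gates on the WD and 0 between diets in CD45hi cells (Psmb9 1.28, FDR = 0.119). With a replicate block by file name, 1 member was called on the WD (H2-K1 1.62, FDR = 0.000825), and Psmb9 lost its call there (1.43, FDR = 0.0602). The block left 353 to 398 genes called on the WD, against 775 without it, and moved the median of all genes to -0.249 and -0.256.

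Over all genes, 38 called between diets in CD45hi cells became 1003 in DESeq2, 252 in the edgeR 4 form, 290 without both libraries that stood apart, 2 with the block by title and 0 with the compared groups only. The interaction went from 1 to 188 genes in DESeq2, to 3 without both libraries that stood apart, and to 0 in limma-voom, the edgeR 4 form and the block. Between the gates, any change gave 1365 genes on the WD and 1202 on the CD, where the main counts were 775 and 595. In limma-voom the median of all genes was -0.265 on the WD and -0.222 on the CD.

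Estimates near 0 changed sign. In CD45lo cells Psmb8 was at -0.03 between diets with the block by title and Psmb9 at -0.01 with no filter. The Psme1 interaction was 0.07 in limma-voom, 0.02 with the block by title and 0.05 without both libraries that stood apart. The Psmb9 over Psmb6 ratio from expected counts was 0.20 between the gates on the CD and -0.01 between diets in CD45lo cells.

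With one library left out, members called between diets in CD45hi cells were 0 to 1, and lost in all 8 fits without a CD45lo library. Psmb10 ran from -0.06 to 0.79 between the gates on the WD and -0.32 to 0.05 on the CD. Between diets in CD45hi cells Psmb8 ran from -0.16 to 0.42, Psmb10 from -0.03 to 0.82, Psme1 from -0.25 to 0.45 and Tap2 from -0.38 to 0.29. In CD45lo cells Psmb8 ran from -0.14 to 0.15, Psmb9 from -0.10 to 0.07, Psme2 from -0.17 to 0.09, Tap2 from -0.03 to 0.29, Tapbp from -0.13 to 0.03 and H2-K1 from -0.10 to 0.20. In the interaction Psmb8 ran from -0.19 to 0.39, Psme1 from -0.37 to 0.33, Tap1 from -0.15 to 0.21 and Tap2 from -0.53 to 0.14. Psmb8 over Psmb5 ran from -0.82 to 0.01 between diets in CD45hi cells. Between the gates on the CD, Psmb9 over Psmb6 ran from -0.32 to 0.28 and Psmb10 over Psmb7 from -0.45 to 0.24. Between diets in CD45lo cells, Psmb9 over Psmb6 ran from -0.10 to 0.18. Depth limits Tap2 most, at 30 to 175 counts.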
